A study of Mus musculus with 10 samples.

Results

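The fatty acid oxidation enzymes *Cpt1a*, *Cpt2*, *Acadl*, *Acadm*, *Acadvl*, *Hadha*, *Hadhb*, *Acaa2* and *Ehhadh* were followed in epididymal white adipose tissue (eWAT) of 10 mice. These 9 genes were taken by symbol from the annotation of the array, and every probe that is not a control and carries one of the symbols was kept, which gave 11 of 55681 probes. *Cpt1a* and *Cpt2* had 2 probes each and the other 7 genes 1 each. All 11 probes were well above background in both dyes on all 10 arrays, so no member was lost to a filter on dim probes.

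The mice were male C57BL/6J wild types (named C57BL/6JOlaHsd in the treatment notes), 9 weeks old at the start, kept at 29°C and fed a purified low fat diet for 3 weeks and then the BIOCLAIMS high-fat diet for 12 weeks. All 10 then received desferrioxamine (DFO), which binds iron, at 100 mg/kg on each of 5 days, and eWAT was taken on day 6 after food had been withheld for 2 hours. RNA of each mouse was labelled with Cy5 and hybridised on an Agilent array against a Cy3 pool made from the RNA of all mice of the wider study, control mice and these 10 mice included. Arrays of the control mice were not analysed here, so the values below describe how the enzymes differed among DFO injected mice and hold no comparison of DFO with its control. The pool thus served as a reference shared by all arrays and cannot stand for untreated mice. Since the dyes were not swapped, no log2 ratio was tested against 0.

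Mitochondrial beta-oxidation shortens fatty acids stepwise to acetyl-CoA. Long-chain acyl groups enter the mitochondrion through the carnitine shuttle, in which CPT1 at the outer membrane makes acylcarnitine and is inhibited by malonyl-CoA, and CPT2 at the inner membrane remakes acyl-CoA. Acyl-CoA dehydrogenases of different chain length (ACADVL, ACADL, ACADM), the trifunctional protein (subunits encoded by *Hadha* and *Hadhb*) and the thiolase ACAA2 then carry out the cycle, while EHHADH catalyses hydration and dehydrogenation in the peroxisome. White adipocytes mainly store and release fatty acids, and many of these genes are known targets of the PPAR nuclear receptors.

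The probes are 60 bases long, and the first 30 bases of those on which the results turn are shown because *Cpt1a* stood against the other enzymes and because the probe pairs of *Cpt1a* and *Cpt2* served to check each other. They are written 5′ to 3′ in lower case with the mm9 coordinates of the printed stretch and the strand.
*Cpt1a* probe 1, chr19:3385374-3385403, plus strand: tcttaggactacttgctaacctctgttact
*Cpt1a* probe 2, chr19:3384060-3384089, plus strand: acagtcccccgaagtcttttgaatcggctc
*Cpt2* probe 1, chr4:107576621-107576650, minus strand: gggttggaaagctaactcagctgtatttat
*Cpt2* probe 2, chr4:107580355-107580384, minus strand: attgtgaatccctcagaaatccaggcacat
*Acadm*, chr3:153585700-153585729, minus strand: tatggtgaccctttctagataggtttggct
*Ehhadh*, chr16:21761944-21761973, minus strand: atggccagatttcaggaatgtgttttctat
*Hadha*, chr5:30446245-30446274, minus strand: ggaagcaggaaaaagaccaaggctagcctt
*Hadhb*, chr5:30510925-30510954, plus strand: gaatcgtctttgtaacatttgcagatactc
The *Acadl* probe lies at chr1:66877673-66877732 and the *Acadvl* probe at chr11:69823722-69823781, both on the minus strand. Probe 1 is the brighter probe of each pair and represents its gene below.

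The 10 mice did not form a single spread. On the first principal component of the 25044 expressed probes, which held 76.2% of their variance, mice 4, 5, 6 and 7 lay apart from mice 1, 2, 3, 8, 9 and 10, with an empty gap of 0.513 of the whole range between them. Labels, diet and dose were the same for all 10. The arrays lay on 5 slides of 2 (mice 1 and 2, 3 and 4, 5 and 6, 7 and 8, 9 and 10), so both sets of mice shared the slides of mice 3 and 4 and of mice 7 and 8. In 23.2% of the expressed probes, mice 4 to 7 were all below the other 6 mice, and in 19.2% all above them. These sets come from the data and are not groups of the study, so values are given for them as ranges, with no test between them.

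Of the 9 enzymes, 6 had mice 4 to 7 as their 4 lowest mice (*Cpt2*, *Acadl*, *Acadm*, *Acadvl*, *Acaa2* and *Ehhadh*), against 23.2% of all expressed probes. *Cpt1a* had the same 4 mice as its highest, against 19.2% of all probes, and *Hadha* and *Hadhb* showed overlapping values. Mouse 8 was the highest mouse for all of the 9 enzymes except *Cpt1a*, whereas it was the highest mouse for 8.47% of all expressed probes. Mouse 7 was the lowest mouse for 6 enzymes, against 18.0% of probes. Over the 6 scalings described below, mouse 8 was the highest for 4 to 8 enzymes, beside 5.77% to 10.5% of probes. Mouse 7 was the lowest for 0 to 7 enzymes, beside 3.43% to 18.1% of probes. Mice 7 and 8 were hybridised on the same slide.

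**Figure D1:**
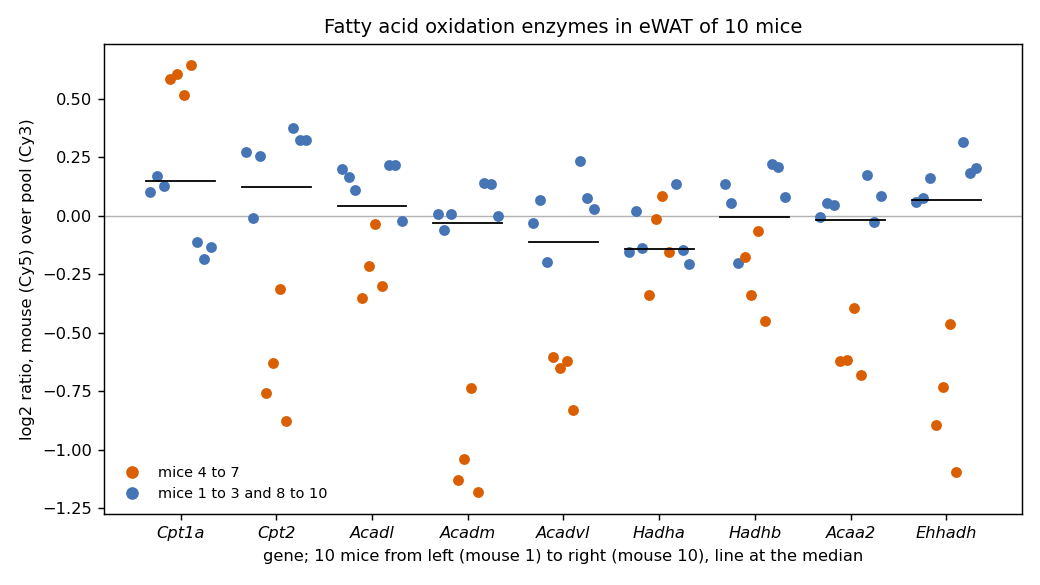
Log2 ratio of Cy5 (mouse) over Cy3 (pool) of the representative probe of each of the 9 genes, with 1 point per mouse in the order of their numbers and a line at the median of the 10 mice. Mice 4 to 7 (orange) lay above the others for *Cpt1a*, below them for 6 genes, and among them for *Hadha* and *Hadhb*.

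Within the carnitine shuttle, *Cpt1a* and *Cpt2* went in opposite directions across the mice. The log2 ratio of *Cpt1a*, the isoform of the outer membrane enzyme typical of liver, was lowest in mouse 9 (-0.18), had a median of 0.15 and was highest in mouse 7 (0.64). Values of mice 4 to 7 lay between 0.52 and 0.64 and those of the other mice between -0.18 and 0.17, which left an empty gap of 0.35, or 1.27-fold. *Cpt2*, the inner membrane enzyme, was lowest in mouse 7 (-0.87), had a median of 0.12 and was highest in mouse 8 (0.38). Here mice 4 to 7 lay between -0.87 and -0.32 and the others between -0.011 and 0.38, so the mice with the highest *Cpt1a* had the lowest *Cpt2*. From the lowest to the highest mouse, *Cpt1a* spanned 1.77-fold and *Cpt2* 2.38-fold.

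*Cpt1a* also varied within the larger set of mice. Mice 1, 2 and 3 lay between 0.10 and 0.17 and mice 8, 9 and 10 between -0.18 and -0.11, an inner gap of 0.597 of the range of these 6 mice. Each array carried 10 spots of this probe, whose SD within an array had a median of 0.066 and reached 0.20 on the array of mouse 3, against an SD of 0.33 between the 10 mice.

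Among the acyl-CoA dehydrogenases, the medium-chain enzyme gene *Acadm* varied most. Its log2 ratio was lowest in mouse 7 (-1.18), had a median of -0.030 and was highest in mouse 8 (0.14), a span of 2.50-fold. Mice 4 to 7 lay between -1.18 and -0.74, and the other 6 mice lay within -0.060 to 0.14 with an SD of only 0.081. The gap between both sets was 0.68, or 1.60-fold, the widest of the 9 genes. *Acadvl*, the very long-chain enzyme gene, was lowest in mouse 7 (-0.83), had a median of -0.11 and was highest in mouse 8 (0.23). Its mice 4 to 7 lay between -0.83 and -0.60 and the others between -0.20 and 0.23. *Acadl*, the long-chain enzyme gene, was lowest in mouse 4 (-0.35), had a median of 0.043 and was highest in mouse 8 (0.22). The *Acadl* values of mouse 6 (-0.035) and mouse 10 (-0.025) differed by 0.0098 only, so that its mice 4 to 7 were barely below the others.

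For both trifunctional protein genes the sets of mice overlapped, and *Hadha* had the smallest SD of the 9 genes (0.15). *Hadha*, which encodes the subunit with hydratase and long-chain hydroxyacyl-CoA dehydrogenase activity, was lowest in mouse 4 (-0.34), had a median of -0.14 and was highest in mouse 8 (0.14). Mouse 6, one of mice 4 to 7, was its next highest mouse (0.086). *Hadhb*, which encodes the thiolase subunit, was lowest in mouse 7 (-0.45), had a median of -0.0074 and was highest in mouse 8 (0.22). Mouse 3 (-0.20) lay among mice 4 to 7 (-0.45 to -0.067) for this gene. The *Hadha* probe was dim, with Cy5 signals of 291 to 748 against 4831 to 18724 for *Hadhb*, and signals of different probes are not compared as levels. The *Ehhadh* probe, described below, was about as dim (266 to 1111).

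*Hadha* and *Hadhb* are neighbours that are read in opposite directions. In the RefSeq promoter table (GRCm38.p6) their starts lie on chromosome 5 at 30154980 (*Hadha*, minus strand) and 30155253 (*Hadhb*, plus strand), 273 bases apart, and their promoter windows (250 bases before to 50 after each start) share 228 bases. The shared stretch is shown because mice 4 to 7 overlapped with the other mice for both genes after loess, unlike for the other 7. It is written on the plus strand with the match to the letters CCGCCC, searched on both strands, in capitals.
*Hadha* and *Hadhb*, chr5:30155003-30155230, plus strand: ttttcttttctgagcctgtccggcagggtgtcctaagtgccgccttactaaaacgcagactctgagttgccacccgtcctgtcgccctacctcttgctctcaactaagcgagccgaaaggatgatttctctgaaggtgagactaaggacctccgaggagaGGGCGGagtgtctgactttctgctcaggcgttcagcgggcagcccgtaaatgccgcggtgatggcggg
The stretch holds 15 CG dinucleotides and 57.0% G and C. CCGCCC is a common word, present in 35.7% of all 32851 promoter windows and in those of 6 of the 8 enzyme genes that have one, so this match sets neither gene apart.

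The last step of the mitochondrial cycle and the peroxisomal enzyme resembled *Acadm*. *Acaa2*, the thiolase gene, was lowest in mouse 7 (-0.68), had a median of -0.018 and was highest in mouse 8 (0.17). Here too mice 4 to 7 were low, between -0.68 and -0.39, with the others between -0.028 and 0.17. The 10 spots of this probe had a median SD of 0.050 within an array, against an SD of 0.34 between mice. *Ehhadh*, the peroxisomal bifunctional enzyme gene, was lowest in mouse 7 (-1.10), had a median of 0.067 and was highest in mouse 8 (0.32), the widest span of the 9 genes at 2.66-fold. Its mice 4 to 7 lay between -1.10 and -0.46 and the others between 0.060 and 0.32, with a gap of 0.52 between them.

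The spread between mice was then set against that of the pool, which was the same RNA on every array. Its Cy3 spread stands for labelling, hybridisation and scanning, as left after normalization. Cy5 is another dye, and a difference in spread between the dyes themselves was not tested. For each probe, the SD of log2 Cy5 was set against the SD of log2 Cy3 over the 10 arrays by the Pitman-Morgan test for paired variances, adjusted by Benjamini-Hochberg over all 25044 expressed probes. Cy5 varied more than Cy3 for 7 of the 9 genes, against 59.8% of all expressed probes, and less for 0 of the 9, against 0.164%. The SD of *Acadm* was 0.54 in Cy5 and 0.045 in Cy3, a 12.0-fold difference (adjusted p = 1.54e-06). For *Cpt2* the difference was 11.4-fold (adjusted p = 6.56e-07) and for *Ehhadh* 10.1-fold (adjusted p = 5.57e-06). *Acadvl* (8.19-fold), *Acaa2* (6.62-fold), *Cpt1a* (4.60-fold) and *Acadl* (4.01-fold) passed as well, with adjusted p of 0.00211 or less. *Hadhb* missed the threshold at 2.21-fold (adjusted p = 0.0582), and *Hadha* had an SD of 0.13 in Cy5 and 0.12 in Cy3 (adjusted p = 0.804). Most expressed probes passed this test, so passing it is common and does not set the 9 genes apart. The SD of the log2 ratio had a median of 0.34 over the 9 genes and of 0.18 over all expressed probes. Without a normalization between arrays, 1 of the 9 genes (*Ehhadh*) passed and 18.7% of probes did.

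**Figure D2:**
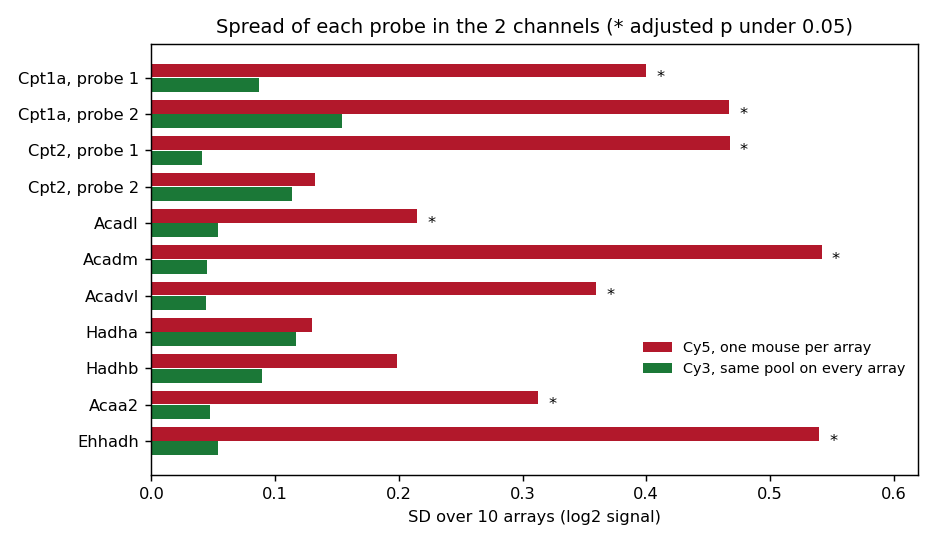
SD over the 10 arrays of log2 Cy5 (red, a different mouse on each array) and log2 Cy3 (green, the same pool) for the 11 probes, with an asterisk where the adjusted p of the Pitman-Morgan test was under 0.05. Red bars are several times the green ones for *Acadm*, *Ehhadh* and *Cpt2* probe 1, and close to them for *Hadha* and *Cpt2* probe 2.

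No probe was called for a difference between slides, but this test could miss such differences. Each slide held only 2 arrays. Some slides held mice of both sets, so the split of the mice counted as spread within slides. In limma's F test of the 5 slides, 0 of 25044 probes passed the adjusted threshold of 0.05 and 1010 had an unadjusted p under 0.05, among them none of the 11 enzyme probes (lowest unadjusted p = 0.151). With median centring of the arrays, described below, the same F test also passed 0 probes. There 2436 probes had an unadjusted p under 0.05, and the lowest unadjusted p of the enzyme probes was 0.0612.

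Probe pairs of the carnitine shuttle genes behaved differently. Both *Cpt1a* probes had mice 4 to 7 as the 4 highest mice. Probe 2 had a log2 ratio of -0.47 in mouse 1, its lowest, a median of -0.21 and 0.47 in mouse 7, its highest, and mice 4 to 7 lay between 0.24 and 0.47. After each probe was centred on its mean, the *Cpt1a* probes differed by a root mean square of 0.15 over the 10 mice, less than the SD of either (0.33 and 0.38). Within the 6 mice of the larger set their r was 0.183, so the parting of mice 1 to 3 from mice 8 to 10 in probe 1 was not seen in probe 2, where mouse 1 was lowest. Probe 2 of *Cpt2* ranged from -0.14 in mouse 4 to 0.13 in mouse 8 with overlapping sets of mice, and its Cy5 did not vary more than Cy3 beyond the threshold (adjusted p = 0.589). The *Cpt2* probes differed by a root mean square of 0.42, against an SD of 0.50 for probe 1 and 0.086 for probe 2. Probe 2 of *Cpt2* was dim, with Cy5 signals of 90.9 to 181 against 2520 to 8322 for probe 1. Probe 2 of *Cpt1a* was dim too, with 94.4 to 490 against 1858 to 8117 for its probe 1. By the array's annotation the *Cpt1a* probes lie 1314 bases apart in the transcript and in the genome, and the *Cpt2* probes 1377 bases apart in the transcript and 3734 in the genome. The statements on *Cpt2* above therefore rest on probe 1.

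**Figure D3:**
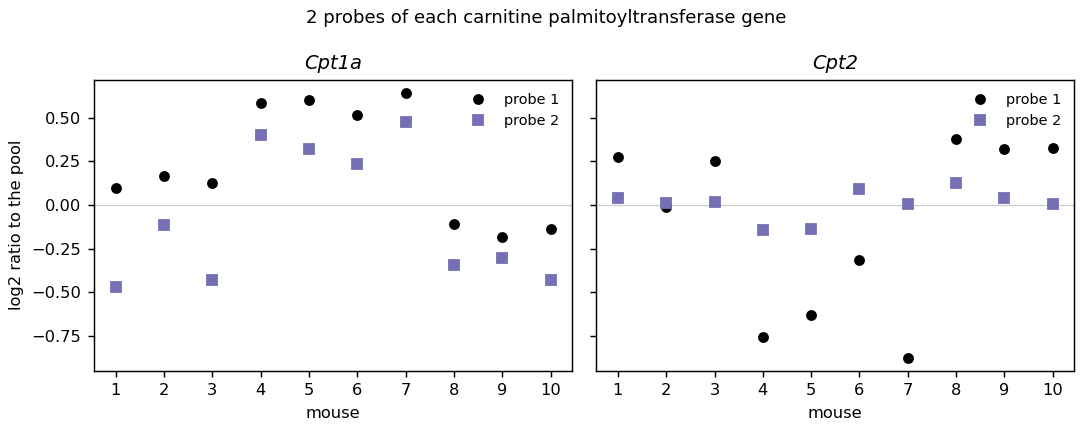
Log2 ratio to the pool in mice 1 to 10 for probe 1 (circles) and probe 2 (squares) of *Cpt1a* (left) and *Cpt2* (right). Both *Cpt1a* probes are highest in mice 4 to 7, whereas *Cpt2* probe 2 stays between -0.14 and 0.13 where probe 1 goes down to -0.87.

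Whether mice 4 to 7 lay fully below the other mice for the enzymes depended on how the arrays were scaled. In none of the scalings tried were they the 4 highest for any of the enzymes named above as low in them. The values above were normalized by loess, which centres each array at every intensity. Centring each array on the median of all its probes, expressed or not, moved the median log2 ratio of the expressed probes from 0.0021 to 0.36, with -0.14 in mouse 3 and 0.27 to 0.53 in the other mice. On that scale none of the 9 enzymes had mice 4 to 7 as its 4 lowest and 7.03% of all expressed probes did, while *Cpt1a* kept them as its 4 highest. With centring on the median of the expressed probes, *Cpt2*, *Acadm* and *Ehhadh* had mice 4 to 7 lowest, beside 16.3% of all expressed probes. With the deposited normalized values *Acadm*, *Acadvl*, *Acaa2* and *Ehhadh* did, beside 15.6% of probes. Over the 6 scalings tried, mice 4 to 7 were the highest for *Cpt1a* in 6, and the lowest for *Acadm* and for *Ehhadh* in 5 each, for *Cpt2*, *Acadvl* and *Acaa2* in 4 each, for *Acadl* in 3 and for *Hadhb* in 1. The last was with the ratio written by the scanner software. There *Hadhb* lay at -0.38 to -0.077 in mice 4 to 7 and 0.028 to 0.25 in the others. That made 7 enzymes, beside 21.5% of all expressed probes. *Hadha* overlapped in all 6.

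Differences between enzymes within a mouse are free of any shift that is equal over a whole array, though not of shifts that depend on signal. The log2 ratio of *Cpt1a* minus that of *Acadm* was 1.26 to 1.82 in mice 4 to 7 and -0.32 to 0.23 in the other mice. With median centring the same difference was 1.13 to 1.69 against -0.39 to 0.14. In each of 4 scalings, *Cpt1a* minus any of the other 8 enzymes was higher in all of mice 4 to 7 than in all other mice. After loess, *Acadm* minus *Hadha* was -1.03 to -0.79 in mice 4 to 7 and -0.079 to 0.28 in the others. *Acadm* minus *Hadhb* was -0.95 to -0.67 against -0.13 to 0.21. With median centring, *Acadm* minus *Hadha* was -0.75 to -0.46 against 0.12 to 0.47, and *Acadm* minus *Hadhb* -0.93 to -0.64 against -0.10 to 0.22. These differences show unequal change among the enzymes and do not say which of them changed.

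The other genes of the pathway, 51 in 6 lists, were taken by role, and 49 of them were expressed. For 43 of the 49, Cy5 varied more than Cy3 (background 59.8%), and for none less. Mice 4 to 7 were the 4 lowest mice for 33 of them and the 4 highest for 3, beside 23.2% and 19.2% of all expressed probes. Their median SD between mice was 0.35.

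In the list of activation and carnitine transport, 9 of 10 genes were expressed and 5 of the 9 passed the variance test. *Acsl1*, the main long-chain acyl-CoA synthetase gene of adipocytes, lay between -1.49 and -0.56 in mice 4 to 7 and between -0.072 and 0.45 in the others, though not apart from them with median centring. The synthetase genes *Acsl3*, *Acsl4* and *Acsl5* ran the other way, as *Cpt1a* did. *Acsl4*, which prefers arachidonic acid, lay between 0.12 and 0.35 in mice 4 to 7 and between -0.51 and -0.13 in the others, and *Acsl3* between 0.19 and 0.31 against -0.40 to -0.075. The *Acsl5* ranges were 0.066 to 0.20 and -0.32 to -0.056. *Cpt1b*, the isoform typical of muscle, overlapped between the sets (-0.30 to 0.054 and -0.091 to 0.32), though with median centring it had mice 4 to 7 lowest. The *Cpt1b* probe used was dim, with Cy5 signals of 67.8 to 129. These 3 synthetase genes had mice 4 to 7 as their highest in each of the 6 scalings described above.

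All 12 other mitochondrial beta-oxidation enzymes passed the variance test and had mice 4 to 7 lowest, 1 of the 12 with median centring. Their median SD was 0.56, above that of the 9 enzymes themselves. The widest was *Acad11*, of the acyl-CoA dehydrogenase family, with -1.61 to -1.04 in mice 4 to 7 and -0.10 to 0.56 in the others. *Hadh*, the short-chain hydroxyacyl-CoA dehydrogenase gene, followed with -1.47 to -0.93 against -0.20 to 0.48. *Eci1* and *Decr1*, whose products handle unsaturated fatty acids, lay at -1.18 to -0.77 against 0.042 to 0.58 and at -1.47 to -0.73 against -0.11 to 0.17. *Echs1*, the short-chain hydratase gene, lay at -1.02 to -0.62 against -0.11 to 0.46. *Hadh* and *Echs1* encode short-chain enzymes for the same reactions that the *Hadha* subunit carries out on long chains.

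The electron transfer genes *Etfa*, *Etfb* and *Etfdh*, which take electrons from the acyl-CoA dehydrogenases to the respiratory chain, all passed and had mice 4 to 7 lowest (0 of 3 with median centring). Of 10 expressed peroxisomal genes 9 passed and 6 had mice 4 to 7 lowest (0 with median centring). *Abcd2* (-1.32 to -0.60 against -0.21 to 0.36), a transporter of very long-chain acyl-CoA, and *Scp2* (-0.99 to -0.51 against -0.13 to 0.38), a thiolase and lipid carrier, had the largest spread. *Hsd17b4*, the other bifunctional enzyme of the peroxisome, lay at -0.76 to -0.49 against -0.11 to 0.22.

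Of the 2 ketone body genes, both of which passed, *Oxct1*, needed to use ketone bodies, lay at -1.03 to -0.63 in mice 4 to 7 against -0.22 to 0.20. *Bdh1*, which interconverts ketone bodies (-0.62 to -0.17 against -0.40 to 1.15), overlapped between the sets. Its probe was dim, with Cy5 signals of 57.9 to 332. Of the 13 regulators 12 passed and 9 had mice 4 to 7 lowest (1 with median centring). *Acacb* and *Acaca* encode the carboxylases that make malonyl-CoA, the inhibitor of CPT1. *Acacb* lay at -1.50 to -0.89 against -0.23 to 0.53 and *Acaca* at -1.25 to -0.92 against -0.24 to 0.53. The nuclear receptor gene *Pparg* lay at -1.01 to -0.56 against -0.064 to 0.59. *Nrip1*, a co-repressor gene, had -1.13 to -0.81 against -0.12 to 0.62, and *Angptl4*, which inhibits lipoprotein lipase, had -1.15 to -0.43 against -0.058 to 0.57.

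**Figure D4:**
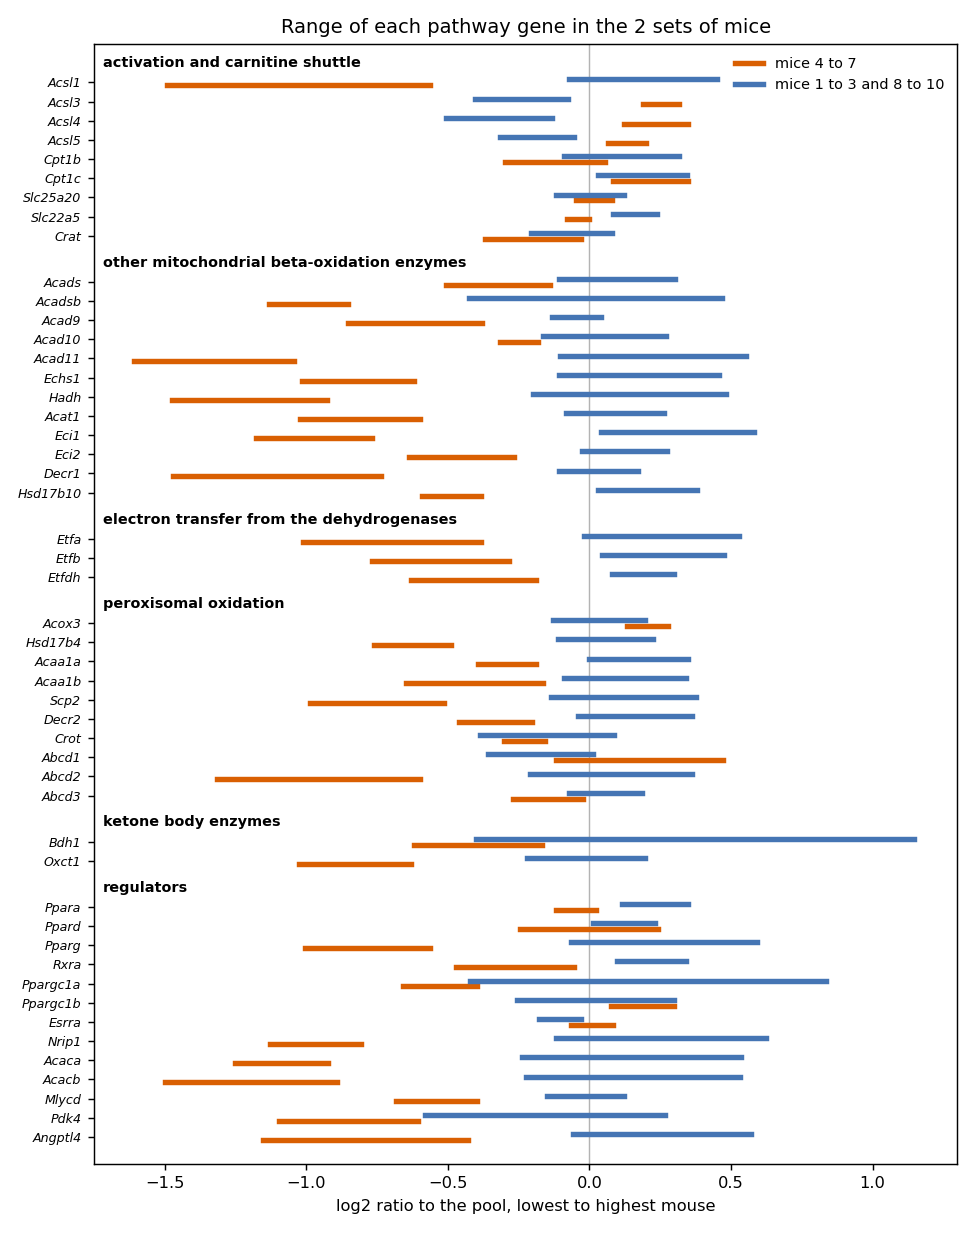
Lowest to highest log2 ratio to the pool of 49 pathway genes, grouped by role, in mice 4 to 7 (orange) and in the other 6 mice (blue). Orange ranges lie to the left of blue ones for 33 genes, and to the right of them for *Acsl3*, *Acsl4* and *Acsl5*.

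Cell type markers moved with the same split of the mice. Of 10 adipocyte markers, 9 were tested, all 9 had mice 4 to 7 lowest, and their mean log2 ratio was -2.56 to -1.48 in mice 4 to 7 and -0.16 to 0.68 in the others. *Cfd* was the widest, at -4.69 to -3.36 against -0.70 to 1.44, and *Adipoq* lay at -2.78 to -1.63 against -0.085 to 0.81. The 9 adipocyte markers were well above background in Cy5 on all 10 arrays. Of 9 macrophage markers 8 were tested and all 8 had mice 4 to 7 highest, with a mean of 0.84 to 1.17 against -1.43 to -0.17. With median centring 7 of the 9 adipocyte markers and all 8 macrophage markers still did so. Of 7 endothelium markers 6 and all 4 blood markers had mice 4 to 7 lowest. With median centring 1 of the 7 endothelium and 0 of the 4 blood markers did so. Of the brown fat markers, *Ucp1* was well above background in Cy5 on 1 array and *Elovl3* on 0, while *Cidea*, *Dio2* and *Cox7a1* were so on all 10. Of the muscle markers, *Ckm*, *Mylpf* and *Tnnt3* were so on 0 arrays and *Acta1* on all 10, with -1.36 to -0.55 in mice 4 to 7 and -0.24 to 1.01 in the others. In a bulk sample, fewer adipocytes and less RNA of these genes per adipocyte cannot be told apart, and the part of the cell mixture in the enzyme values was not tested. The median SD was 1.15 over the adipocyte markers and 0.34 over the 9 enzymes.

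**Figure D5:**
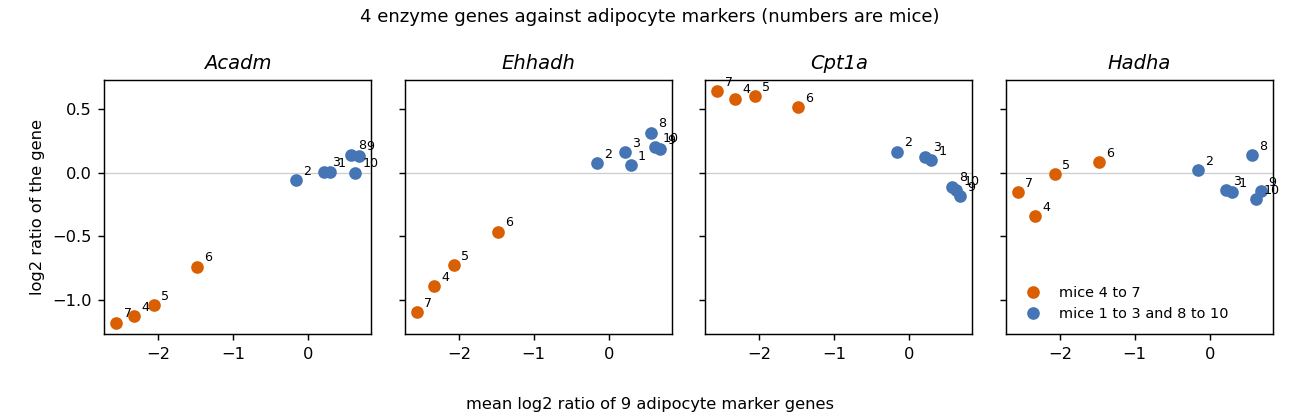
Log2 ratio of *Acadm*, *Ehhadh*, *Cpt1a* and *Hadha* against the mean log2 ratio of 9 adipocyte marker genes, 1 numbered point per mouse. Mice 4 to 7 (orange, marker mean -2.56 to -1.48) lie low for *Acadm* and *Ehhadh*, high for *Cpt1a* and among the others for *Hadha*.

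Because the mice fell into separate sets, correlations were taken over the 6 mice of the larger set only. Of the 36 pairs among the 9 genes, 0 passed Benjamini-Hochberg adjustment over the pairs in the exact permutation test of Pearson's r (lowest adjusted p = 0.535), 3 had an unadjusted p under 0.05 and 26 had a positive r. By Spearman's rho, 0 pairs had an unadjusted p under 0.05. The highest r was that of *Acadvl* and *Hadhb* (r = 0.862, rho = 0.771, exact permutation p = 0.0403, rho p = 0.103), which dropped to 0.048 without the 2 mice farthest from the median of *Acadvl*. With 6 mice only strong relations can pass. With median centring 26 pairs passed. On that scale the arrays still differed in the median of their expressed probes, as given above. Whether this made the pairs pass was not tested.

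Against the mean of the adipocyte markers over these 6 mice, 1 of 9 genes passed. *Cpt1a* had an r of -0.933 and a rho of -1 (exact permutation p = 0.00278 and adjusted p = 0.025 for both, two-sided), and *Cpt2* an r of 0.919 and a rho of 0.771 (exact permutation p = 0.0139 and 0.103, adjusted p = 0.0625 and 0.463). Without the 2 mice farthest from the median of the marker mean, r was -0.996 and 0.876. Since *Cpt1a* parted mice 1 to 3 from mice 8 to 10 and neither of these has 6 mice, the relation could not be tested within them. In the same exact permutation test it did not pass without background subtraction or with the mean over both probes (adjusted p = 0.0625 for each), nor with the deposited values (r = -0.562, adjusted p = 0.247), and with median centring r turned to 0.558. Probe 2 of *Cpt1a* had an r of 0.183 with probe 1 over these mice.

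The genes whose centred log2 ratio lay closest to each enzyme over the 10 mice were sought among 12679 genes, by the smallest root mean square difference. For *Cpt1a* these were *Grb2* (0.038), *Cfl1* (0.043) and *Rassf2* (0.048), an adaptor, an actin-severing protein and a Ras-association protein, none of them an enzyme of lipid oxidation. For *Cpt2* they were *Dnajc15* (0.053), *Etfb* (0.062) and *Ndufb3* (0.063), all of which encode mitochondrial proteins. *Acadl* had *Tmco1* (0.057), *Dlat* (0.061) and *Ndufa12* (0.062) as neighbours, and *Hadhb* had *Cs* (0.044), the citrate synthase gene, *Rfk* (0.048) and *Setd8* (0.049). For *Ehhadh* the nearest genes included other members, *Cpt2* (0.082) and *Acadm* (0.086), with *Nckap1* (0.086) between them. *Acadm* had *Ak3* (0.047), *Gcap14* (0.051) and *Bmpr1a* (0.061), *Acadvl* had *Pik3r1* (0.060), *Gprc5b* (0.068) and *Fbxw8* (0.070), and *Acaa2* had *Sil1* (0.038), *Fam126b* (0.046) and *Pef1* (0.047). *Hadha* had *Eri3* (0.069), *Gm15421* (0.069) and *C330019G07Rik* (0.080), against its own SD of 0.15.

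Promoter windows of the enzymes were compared where their genes ran in opposite directions. RefSeq windows were found for 8 of the 9 genes, without *Acaa2*. The letters AGGTCA, the half-site of nuclear receptors, occurred on either strand in 16.3% of all 32851 windows and in those of *Acadm*, *Acadvl* and *Cpt1a*. The direct repeat AGGTCANAGGTCA occurred in 0.0396% of windows and its looser form AGGNCANAGGNCA in 0.381%, in none of the 8. The 250 bases before the start of *Acadm* and *Cpt1a*, the pair of enzymes with the widest parting of the mice after loess, are shown on the strand of each gene with AGGTCA or its reverse complement in capitals.
*Acadm*, GRCm38.p6 chr3:153944644-153944893, minus strand: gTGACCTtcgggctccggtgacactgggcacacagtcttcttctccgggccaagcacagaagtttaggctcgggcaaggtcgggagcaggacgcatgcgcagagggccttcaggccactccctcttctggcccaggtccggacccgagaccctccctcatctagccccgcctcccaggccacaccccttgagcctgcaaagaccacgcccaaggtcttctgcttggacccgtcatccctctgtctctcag
*Cpt1a*, GRCm38.p6 chr19:3323051-3323300, plus strand: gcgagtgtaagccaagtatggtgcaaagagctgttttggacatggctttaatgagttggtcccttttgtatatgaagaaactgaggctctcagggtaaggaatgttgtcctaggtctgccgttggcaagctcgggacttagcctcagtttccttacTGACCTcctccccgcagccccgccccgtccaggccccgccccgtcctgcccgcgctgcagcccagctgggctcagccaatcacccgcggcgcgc
Both genes thus held the same word, 249 bases before the start in *Acadm* and 94 before it in *Cpt1a*, while their log2 ratios ran in opposite directions. A match of letters does not show that a receptor binds there.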

How the data were processed

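The authors deposited scanner files of 10 two-colour Agilent arrays (Feature Extraction 10.7.3.1 per the labels), with the intensity of each spot and its background in Cy5 and Cy3, and a log10 ratio made by that software. A deposited table of normalized values for 30733 spots, found to be on a log2 scale and to follow Cy5, served as an alternative. How it was made was not given in the sources used here.

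Mean intensities were background-corrected by normexp (offset 50), normalized by loess within arrays and by Aquantile between arrays with limma 3.58.1 in R 4.3.3. Control and outlier spots were left out, and 59305 spots were averaged to 55681 probes. A probe was expressed when well above background in both dyes on at least 5 arrays with no missing value (25044 probes). Median Cy5 signals were 54.8 to 81.3 over a background of 32 to 37 and 0 spots were saturated. The labels name separate mice.

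Probes were tested by Pitman-Morgan and slides by limma, both adjusted by Benjamini-Hochberg over all expressed probes, and relations by exact permutation (Python 3.11.15, scipy 1.17.1). Both tests across probes were tested on simulated data. A gene was represented by its brightest expressed probe. All 9 enzymes were named with every probe, up to 5 genes with the largest SD in each list, and the 3 nearest genes of each enzyme. *Ppargc1a*, *Ppargc1b*, the markers set beside them in mouse 2 and the brown fat and muscle markers were named after their values were seen. Of the other marker lists, mice 4 to 7 were lowest for 5 of 8 mesothelium, 2 of 4 lymphocyte and 1 of 6 fibroblast and progenitor markers tested. They were also lowest for 1 of 1 muscle, 2 of 3 brown fat, 0 of 3 sperm and 0 of 1 epididymis markers. Mice 4 to 7 were highest for 2 of 6 fibroblast and progenitor and 1 of 3 brown fat markers, and for none in these other lists. Over all expressed probes the shares were 23.2% lowest and 19.2% highest. Some pathway genes are not reported here. Members and lists were chosen with earlier results of these data known. Alternatives were another background, normalization, filter, test or probe rule, the slide as a block, and leaving out each mouse.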

Additional observations from a re-analysis of the deposited data

Results flagged for a closer look

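Among 60 probes of the enzymes and the other pathway genes, 3 had a single mouse far from the other 9. The gap was above the 95% critical value of Dixon's test for 10 samples. None of the 11 enzyme probes was among them, and all 3 were set apart by mouse 2. For independent values of a single spread, chance gives this in about 1 of 20, which comes to about 3 of 60. The mice fell into separate sets and the probes are not independent, so that rate need not hold here. *Bdh1*, which interconverts ketone bodies, was 1.15 on the log2 scale in mouse 2 and -0.17 or less in the other mice, a gap of 0.745 of the range. *Ppargc1a*, a coactivator gene of oxidative metabolism, was 0.84 in mouse 2 and -0.037 or less in the others (gap of 0.585 of the range). Its relative *Ppargc1b* was -0.26 in mouse 2, its lowest, and 0.013 or more in the others (gap of 0.485 of the range). The probes used were dim, with Cy5 signals of 57.9 to 332 for *Bdh1*, 81.0 to 390 for *Ppargc1a* and 95.8 to 157 for *Ppargc1b*. *Bdh1* had 3 probes, none well above background in Cy5 on more than 8 arrays, and *Ppargc1a* had 2. Only the brightest expressed probe of each gene was used. All 3 sperm markers tested and 3 of 8 mesothelium markers (the keratins *Krt8*, *Krt18* and *Krt19*) were also highest in mouse 2. So was 1 marker each of the fibroblast and progenitor and the brown fat lists. Over all expressed probes, mouse 2 was the highest mouse for 11.2% and the lowest for 5.83%. The sperm probes were dim too, with lowest Cy5 signals of 57.4 (*Prm1*), 66.9 (*Prm2*) and 58.8 (*Tnp1*). *Prm1* was well above background in Cy5 on 8 arrays and *Tnp1* on 9. The mean of the sperm list was -1.02 in mouse 2 and -2.79 to -2.10 in the others. That of the mesothelium list was 0.042 in mouse 2, below mice 8 (0.24) and 10 (0.27). The part of these cell types in the values was not tested. In the 9 enzymes mouse 2 was neither the highest nor the lowest mouse, which is near its shares over all expressed probes.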

How the results depend on the processing

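Median centring over all probes left 0 enzymes with mice 4 to 7 lowest, against 6, let 26 pairs of enzymes pass, against 0, and 4 relations with the adipocyte markers, against 1, with the r of *Cpt1a* turned to 0.558. It also moved the mean log2 ratio to the pool by more than 1 SD between mice for all genes except *Ehhadh*, to 0.81 for *Cpt1a* (from 0.23), 0.48 for *Cpt2* (from -0.10), 0.55 for *Acadl* (from -0.0017), 0.29 for *Acadm* (from -0.39), 0.38 for *Acadvl* (from -0.25), 0.35 for *Hadha* (from -0.091), 0.59 for *Hadhb* (from -0.053) and 0.46 for *Acaa2* (from -0.20). Centring on the median of the expressed probes, chosen after seeing the data, left 3 enzymes with mice 4 to 7 lowest, beside 16.3% of probes. Without normalization between arrays the variance of Cy5 exceeded that of Cy3 for 1 enzyme, against 7, and for 4674 probes, against 14970.

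The log2 of the *Hadha* SD in Cy5 over that in Cy3, 0.15, turned to -0.065 with median centring and -0.17 with the slide as a block, and ranged from -0.31 to 0.69 when each mouse was left out. *Hadhb* passed the variance test with median centring (adjusted p = 0.0393), the F test (adjusted p = 0.0486) and without mouse 5 (adjusted p = 0.0408). With the deposited values 3 pairs passed. Relations with the adipocyte markers passed for 3 enzymes when the ratio written by the scanner software was used, and for 0 without background subtraction, with the deposited values, with the mean over probes and without any 1 of the 6 mice, where 120 permutations cannot reach the adjusted threshold for 1 gene of 9 alone. The causes were not tested. In the variance test the count of 7 enzymes was 5 with median centring (without *Acadl*, *Acadvl* and *Acaa2* and with *Hadhb*). It was 8 with the F test and without mouse 5, 1 without normalization between arrays, and 7 under the other settings run. The share of all tested probes that passed was 59.8% in the main setting and 40.4% with median centring. It was 56.4% with the F test, 56.7% without mouse 5 and 18.7% without normalization between arrays. Under the other settings with a share it lay between 26.1% (no filter on dim probes) and 64.0% (well above background on all 10 arrays). No paired analysis was possible because there was 1 group. Among the enzyme probes, by Cy5 signal, probe 2 of *Cpt2* (90.9 to 181) and probe 2 of *Cpt1a* (94.4 to 490) lay nearest to the background. The probes of *Ehhadh* (266 to 1111) and *Hadha* (291 to 748) came next.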
